A study of Mus musculus with 41 samples.

Results

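The Wnt target and feedback genes are 10 genes of the canonical Wnt pathway, described here across every group of a study of the mouse small intestine. The genes are Axin2, Ascl2, Sp5, Nkd1, Apcdd1, Lef1, Tcf7, Tcf7l2, Myc and Ccnd1, 10 of the 23366 genes counted, taken by name as known targets, feedback inhibitors and nuclear factors of the pathway and not by how they behaved. Each level is in CPM, a gene's share of the library's reads assigned to genes multiplied by 1000000, without the 5 category rows that a counting program adds. A log2 fold change is that of the first-named group over the second, with its standard error (SE), and a gene passed when its Benjamini-Hochberg adjusted p from edgeR was under 0.05 over all genes tested. Where libraries of compared groups are said not to overlap in a gene, the share of all genes without overlap was not counted. For a gene that passed, a lack of overlap adds little to the call, as the gene was picked by it.

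The study profiled small sorted samples of 250 cells by RNA sequencing, from mice of mixed C57BL/6 and CD1 background, in 41 libraries of 15 groups. At embryonic day 11.5 (E11.5) there were 3 libraries each of Lgr5+EpCAM+ epithelium labelled Id2KO, EpCAM+ epithelium labelled Id2KO, EpCAM+ epithelium labelled wild type, mesenchyme labelled Id2KO and mesenchyme labelled wild type, each library from 1 embryo. At E13.5 there were 4 libraries each of Lgr5+EpCAM+ and EpCAM+ epithelium, each from a pool of 6 to 12 embryos, with no genotype in the labels. From adults at postnatal day 60 (P60) there were 4 libraries of Lgr5+ intestinal stem cells (ISC) with no genotype or segment in the labels, and 14 libraries of Lgr5+ stem cells from the anterior, middle or posterior segment. These 14 were 2 libraries each for Id2KO and wild type in every segment, and 2 Tomato+ Id2KO libraries of the posterior segment. EpCAM marks epithelium, Lgr5 is a receptor for R-spondins and the best known marker of crypt base stem cells, sorted here through an EGFP reporter, and Id2 encodes an inhibitor of basic helix-loop-helix factors. The labels do not give the Id2 allele, a Cre driver or what Tomato reports, and Lgr5+ cells of wild type embryos at E11.5 were not analysed here. Nor do they say that adult libraries came from separate mice, so p-values among adults measure the spread between these libraries, which may be technical.

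In the absence of Wnt ligand, a complex built on Apc and an Axin protein holds beta-catenin low through phosphorylation by Gsk3b and casein kinase. When a Wnt ligand binds a Frizzled receptor and Lrp5 or Lrp6, beta-catenin accumulates, enters the nucleus and binds TCF/LEF factors at target genes. In the intestine this signal maintains the crypt stem cells and the growth of the epithelium. Axin2, Nkd1 and Apcdd1 are targets that in turn damp the pathway: Axin2 as a scaffold of the destruction complex, Nkd1 through Dishevelled, and Apcdd1 at the membrane. Sp5 is a zinc finger factor and an early target, and Ascl2 is a basic helix-loop-helix factor of crypt stem cells. Lef1, Tcf7 and Tcf7l2 are TCF/LEF factors themselves, and Myc and Ccnd1 drive growth and entry into the cell cycle.

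Promoter sequence was available for 7 of the 10 genes in the RefSeq table used (mouse build GRCm38.p6), and it is shown for Sp5 and Axin2, the targets whose E11.5 and adult values stand out below. TCF/LEF motifs were searched on both strands as CTTTG with A or T at each of the next 2 bases, and matches stand in capitals. Each sequence is the 250 bases before an annotated transcription start, 5′ to 3′ on the plus strand, for Sp5 at chr2:70474673-70474922 and for Axin2 at chr11:108920099-108920348.
Sp5: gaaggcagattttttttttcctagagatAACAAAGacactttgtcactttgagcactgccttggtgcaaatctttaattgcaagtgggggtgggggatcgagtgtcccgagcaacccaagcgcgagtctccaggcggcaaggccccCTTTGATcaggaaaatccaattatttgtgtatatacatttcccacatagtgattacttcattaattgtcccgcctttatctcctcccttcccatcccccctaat
Axin2: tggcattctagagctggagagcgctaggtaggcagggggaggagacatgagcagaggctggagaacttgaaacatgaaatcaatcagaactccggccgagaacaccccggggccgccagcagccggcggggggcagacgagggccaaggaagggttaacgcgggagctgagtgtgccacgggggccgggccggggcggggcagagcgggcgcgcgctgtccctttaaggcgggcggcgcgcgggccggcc
Sp5 held 2 matches that do not overlap, at -222 to -216 on the minus strand and at -104 to -98 on the plus strand, counted from the start site. Of all 32851 windows of this length in the table, 1.43% held 2 or more matches and 14.8% held at least 1. Axin2, Ascl2, Nkd1 and Tcf7 held none in this window, and Lef1 and Tcf7l2 held 1 each, in windows of an alternative start. A match is a description of these letters, not a binding site. Apcdd1, Myc and Ccnd1 are named only.

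Libraries held 13596192 to 51212645 reads assigned to genes, so 1 count was worth 0.0195 to 0.0736 CPM. At E11.5, Id2 itself averaged 167 ± 13.3 CPM in Id2KO EpCAM+ cells, 132 ± 25.5 CPM in Id2KO Lgr5+EpCAM+ cells and 142 ± 29.1 CPM in Id2KO mesenchyme, against 5961 ± 646 CPM in wild type EpCAM+ cells and 2525 ± 305 CPM in wild type mesenchyme (SD, n = 3 each). In adults Id2 did not follow the label: it averaged 197 ± 2.64 CPM in anterior, 106 ± 9.82 CPM in middle and 148 ± 18.7 CPM in posterior libraries labelled Id2KO, against 83.8 ± 28, 113 ± 17.4 and 80.1 ± 6.84 CPM in the same segments labelled wild type (SD, n = 2 each). The log2 fold change of Id2 was +1.23 ± 0.19 (SE, edgeR adjusted p = 0.0053) in the anterior, -0.13 ± 0.19 (edgeR adjusted p = 0.78) in the middle and +0.87 ± 0.19 (edgeR adjusted p = 0.02) in the posterior segment. Adult groups are therefore called by their label only. Of the leucocyte markers, C1qa passed 100 CPM in 3 E11.5 EpCAM+ libraries, replicates 1 and 2 labelled Id2KO and replicate 1 labelled wild type, and results on that group are also given without them. Those refits leave replicate 3 alone in Id2KO EpCAM+ cells and replicates 2 and 3 in wild type. Where Id2KO EpCAM+ cells are a compared group, they are given as effect sizes only. Reads assigned to no gene made up 22.2% to 31.0% of reads in the 12 E13.5 and adult ISC libraries and 7.1% to 22.1% in the 29 E11.5 and adult segment libraries. The 29 were not uniform: adult segments had 7.1% to 9.3% and E11.5 libraries 12.0% to 22.1%, close to the lowest of the 12. Several Wnt pathway genes divided the 12 from the 29 with no overlap. The share of all genes that did so was not counted, so this is not shown to be particular to Wnt genes. Between adult ISC and wild type adult segments, on either side of the division, 56.6% of all genes tested passed. Gsk3b had 510 to 1598 CPM in the 12 libraries and 45.9 to 149 CPM in the 29. Aes, a corepressor, had 17.2 to 52.4 CPM in the 12 and 213 to 683 CPM in the 29. Age and library set cannot be told apart in comparisons between stages that cross this division. Adult ISC and adult segments lie on either side of it at the same age, P60.

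Across the 15 groups the 10 genes took different shapes, shown in the plot of all members by library. Axin2 and Ascl2 were low in the embryo and high in adult stem cells. Axin2 averaged 190 CPM in adult ISC, 51.3 to 99.1 CPM in the 7 adult segment groups, 11.7 CPM in E13.5 Lgr5+EpCAM+ cells, 5.29 CPM in E13.5 EpCAM+ cells and 1.27 to 4.43 CPM in the E11.5 groups. Of its 14 pairs of neighbours in this order, 5 had ranges that did not overlap, and the 5 E11.5 groups overlapped in a chain. Ascl2 averaged 189 to 238 CPM in the 8 adult groups, 32.4 CPM in E13.5 Lgr5+EpCAM+ cells, 9.23 CPM in E13.5 EpCAM+ cells and 0.774 to 3.41 CPM at E11.5, and again 5 of 14 neighbours stood apart. Over group means, log2(CPM + 1) of Axin2 and Ascl2 correlated at r = 0.96 (n = 15 groups, which share stage and library set), the highest of the pairs that Axin2 or Ascl2 made with the other members.

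Sp5 was high in adult segments, where its group means were 46.4 to 72.8 CPM, and the highest segment group was the posterior one labelled wild type. The next were 2 E11.5 groups, wild type EpCAM+ cells with 18.1 CPM and Id2KO Lgr5+EpCAM+ cells with 17.1 CPM, and their ranges overlapped with those of adult ISC at 12.2 CPM. In E13.5 EpCAM+ cells Sp5 was at 0.0978 CPM, from 5, 2, 4 and 2 reads in the 4 libraries. Nkd1 was highest in adult middle libraries labelled Id2KO, at 50.3 CPM, and in E11.5 mesenchyme, at 44.4 CPM (Id2KO) and 24.0 CPM (wild type). It was lowest in E13.5 epithelium, at 1.19 CPM in Lgr5+EpCAM+ and 1.11 CPM in EpCAM+ cells. Apcdd1 was close to background: it stayed under 1 CPM in 26 of 41 libraries, had no read in 7 and never passed 5.42 CPM.

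By group mean, Tcf7l2 was the most abundant of the 3 TCF/LEF members per kilobase of exon in 14 of the 15 groups, at 14.3 to 102 CPM per kilobase. The exception was the adult anterior group labelled wild type, where Tcf7 had 20.4 and Tcf7l2 18.5 CPM per kilobase. In some other adult segment groups Tcf7l2 and Tcf7 nearly tied, so their order there is not settled. Tcf7l2 had 17.5 and Tcf7 17.4 CPM per kilobase in the anterior, and 17.4 and 17.1 in the posterior group labelled Id2KO. Among adult segments the gap was widest in the middle group labelled Id2KO, at 20.7 and 14.5. Lef1, a factor that in other tissues activates Wnt targets, had 0.221 to 1.49 CPM per kilobase and at most 7.56 CPM in any library, and none of its 14 neighbouring groups stood apart. Tcf7 averaged 36.0 to 53.6 CPM in the 7 adult segment groups and 4.96 to 13.7 CPM in all other groups, adult ISC included. Tcf7l2 averaged 437 and 451 CPM in E13.5 Lgr5+EpCAM+ and EpCAM+ cells and 353 CPM in adult ISC, against 63.5 to 144 CPM in the other 12 groups. Myc averaged 300 to 749 CPM in adult groups, 383 CPM in Id2KO, against 271 CPM in wild type E11.5 mesenchyme, and 25.0 to 139 CPM in embryonic epithelium, lowest in E11.5 Id2KO Lgr5+EpCAM+ cells. Ccnd1 had the narrowest range, with group means of 39.7 to 199 CPM, a 5.01-fold span, and its lowest means were those of the E13.5 groups. Per kilobase, Myc led the 10 genes in all 8 adult groups, from 122 CPM per kilobase in adult ISC to 306 in the posterior group labelled wild type, followed each time by Ascl2.

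**Figure D1:**
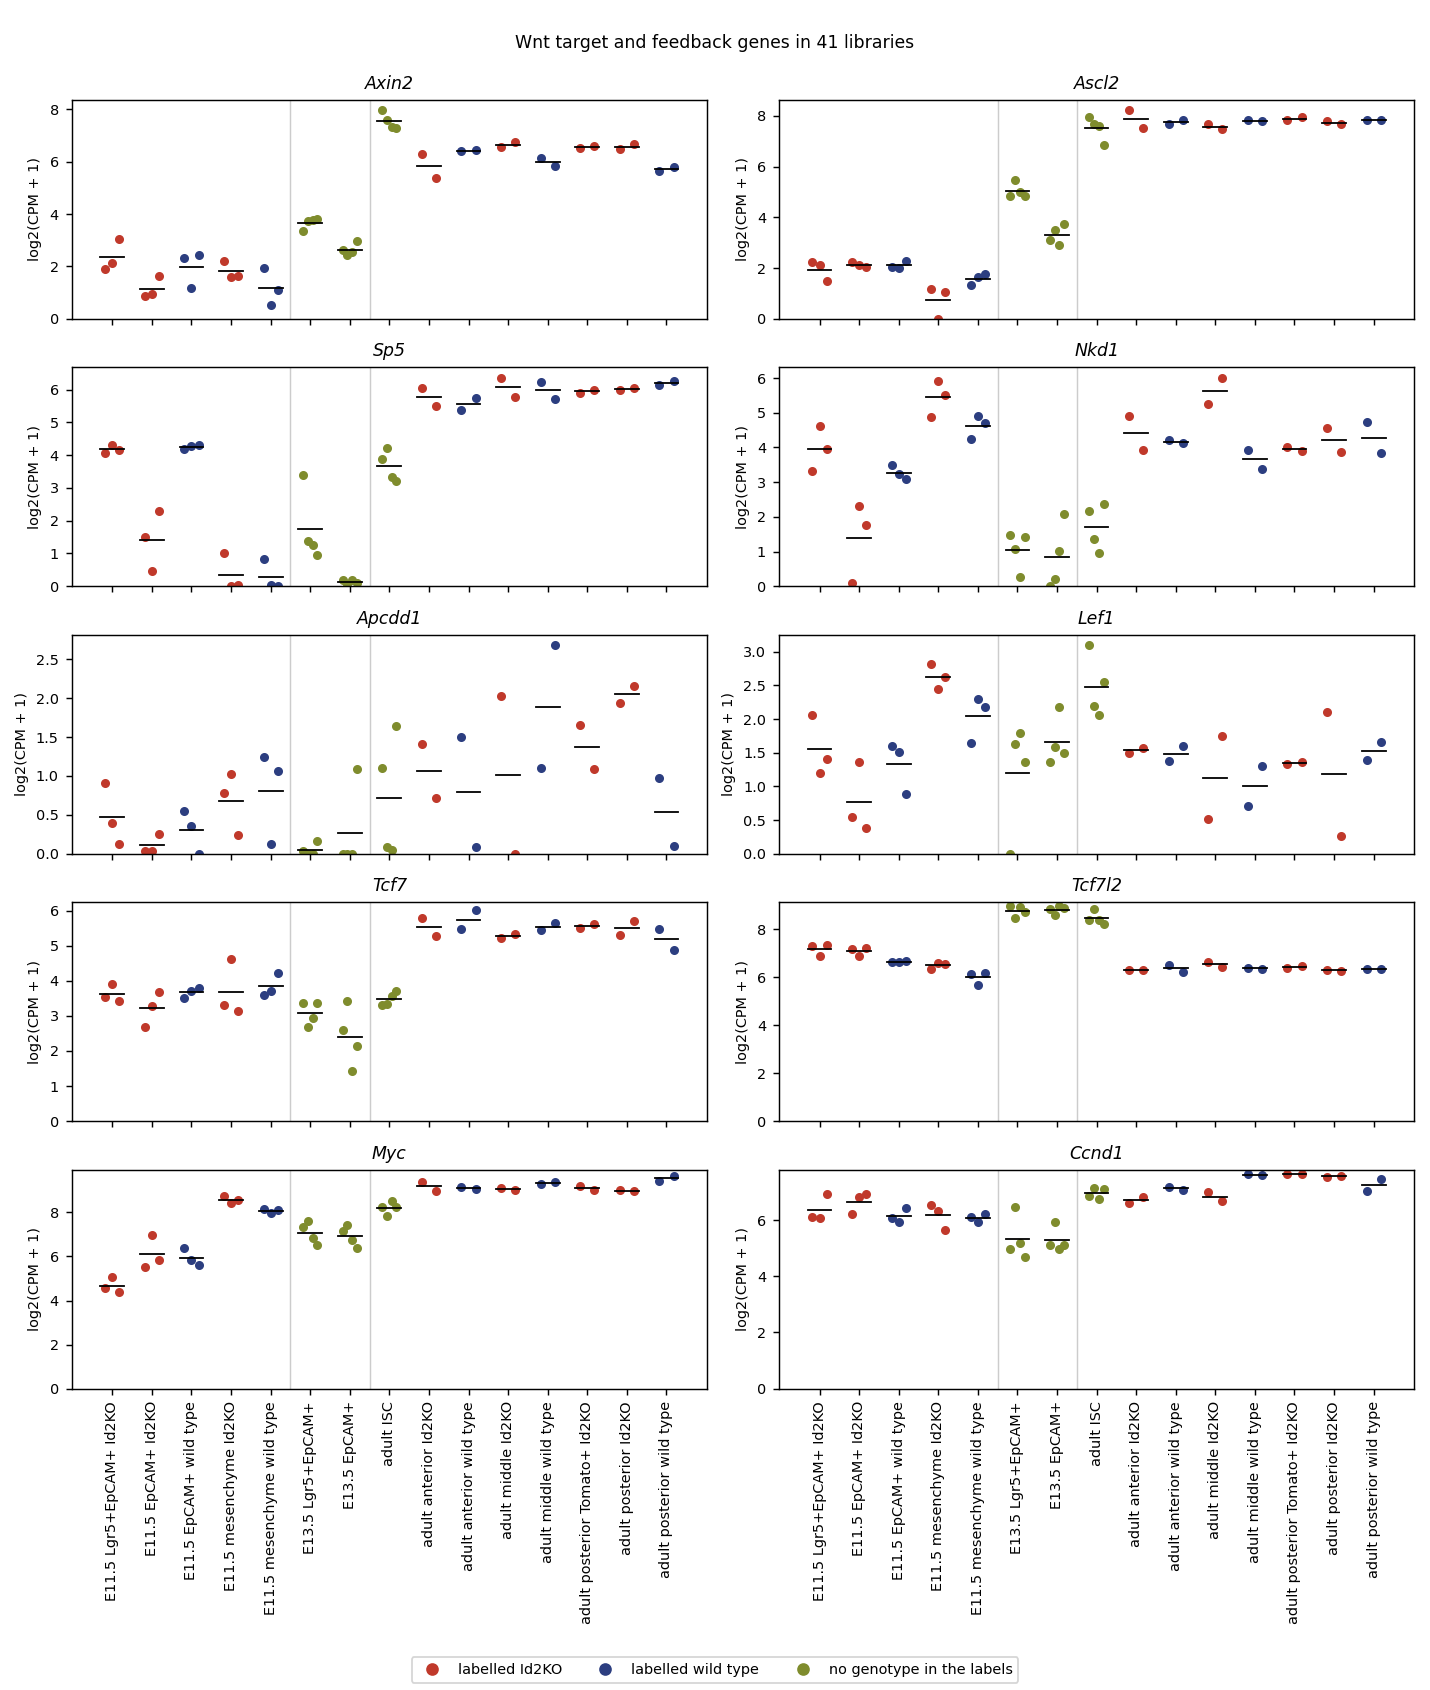
Level of each of the 10 genes, as log2(CPM + 1), in the 41 libraries (points) of 15 groups (x axis), with the group mean as a black bar and grey lines between E11.5, E13.5 and adult groups. Axin2 and Ascl2 are high in adult groups and low at E11.5, Sp5 is near 0 in E13.5 EpCAM+ cells, and Tcf7l2 is high in the 12 E13.5 and adult ISC libraries.

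Sp5 fell in E11.5 EpCAM+ epithelium labelled Id2KO, the only 1 of the 10 genes to pass in that comparison, where 1.66% of 15153 tested genes passed. It had 1.86, 0.39 and 3.87 CPM in Id2KO libraries, against 17.1, 18.2 and 19.0 CPM in wild type libraries. Every Id2KO library lay below every wild type library, and the log2 fold change was -3.09 ± 0.60 (SE, edgeR adjusted p = 0.028, n = 3 each). In sorted samples such as these, fewer cells that hold a transcript and less of it in each cell cannot be told apart. Nkd1 ran in the same direction without passing, with 0.0572, 3.99 and 2.41 CPM in Id2KO libraries against 10.3, 8.33 and 7.55 CPM in wild type libraries (log2 fold change -2.0 ± 0.85, edgeR adjusted p = 0.34). Axin2 had 0.829, 0.92 and 2.07 CPM in Id2KO, against 4.03, 1.28 and 4.45 CPM in wild type libraries, which overlap (-1.31 ± 0.70, edgeR adjusted p = 0.48). Ascl2 differed by +0.08 (95% interval -0.92 to 1.07). Tcf7l2 had 141, 118 and 149 CPM in Id2KO, against 97.4, 97.8 and 100 CPM in wild type libraries, with no overlap, but did not pass (+0.51 ± 0.16, edgeR adjusted p = 0.18). The median log2 fold change was -0.71 over the 10 genes and 0.01 over all genes tested.

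The call on Sp5 was lost without replicate 1 of Id2KO (edgeR adjusted p = 0.084), without replicate 1, 2 or 3 of wild type (0.067, 0.097 and 0.093, log2 fold changes -3.15, -3.09 and -3.02), and when the 2 groups were fitted alone (edgeR adjusted p = 0.11). Without the 3 libraries with over 100 CPM of C1qa, which leaves replicate 3 alone in Id2KO, Sp5 was at -2.22. C1qa had 120, 133 and 0.0553 CPM in Id2KO, against 132, 40.8 and 15.2 CPM in wild type libraries, and the summed level of the 10 leucocyte markers was 5.86 to 1185 CPM in Id2KO, against 111 to 1014 CPM in wild type, with none of the 10 at 0 in either group.

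In Id2KO Lgr5+EpCAM+ cells of the same stage, Sp5 was higher than in Id2KO EpCAM+ cells and Myc was lower, 2 of the 10 genes against 3.14% of all genes tested. Sp5 had 15.8, 18.7 and 16.7 CPM in Lgr5+EpCAM+ cells and 1.86, 0.39 and 3.87 CPM in EpCAM+ cells, at a log2 fold change of +3.01 ± 0.60 (SE, edgeR adjusted p = 0.02, n = 3 each). Myc had 22.6, 32.6 and 20 CPM in Lgr5+EpCAM+ cells and 45.2, 125 and 55.8 CPM in EpCAM+ cells, at -1.60 ± 0.35 (edgeR adjusted p = 0.031). In neither gene did the groups overlap, which adds little to the calls, as the genes were picked by them. Axin2 had 2.7, 3.39 and 7.21 CPM in Lgr5+EpCAM+ cells, all above the EpCAM+ libraries given above, and Nkd1 had 8.99, 23.4 and 14.5 CPM, also all above. Neither passed: Axin2 was at +1.75 ± 0.71 (edgeR adjusted p = 0.26) and Nkd1 at +2.85 ± 0.87 (edgeR adjusted p = 0.12), though DESeq2 called Nkd1 (+2.86, adjusted p = 0.0062). Ascl2 had 3.69, 3.3 and 1.81 CPM in Lgr5+EpCAM+ cells against 3.74, 3.35 and 3.12 CPM in EpCAM+ cells, groups that overlap (log2 fold change -0.25, 95% interval -1.25 to 0.75). The median log2 fold change was 0.88 over the 10 genes and -0.01 over all genes. Lgr5 itself, on which the cells were sorted, was at +4.16 ± 0.51 (edgeR adjusted p = 0.0014).

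The call on Sp5 was lost without EpCAM+ replicate 1 (edgeR adjusted p = 0.068), without Lgr5+EpCAM+ replicate 1, 2 or 3 (0.058, 0.062 and 0.061) and with the 2 groups alone (0.069). The call on Myc was lost without Lgr5+EpCAM+ replicate 1, 2 or 3 (edgeR adjusted p = 0.12, 0.051 and 0.14) and with the 2 groups alone (0.071). Without the libraries over 100 CPM of C1qa, which leaves EpCAM+ replicate 3 alone, Myc was at -1.22. Without EpCAM+ replicate 1, which had the 0.0572 CPM of Nkd1, Nkd1 passed (+2.28, edgeR adjusted p = 0.033). The leucocyte markers summed to 3.2 to 7.81 CPM in Lgr5+EpCAM+ cells and 5.86 to 1185 CPM in EpCAM+ cells. Of the 10, 1 was at 0 in the Lgr5+EpCAM+ libraries. The mesenchyme markers summed to 49.7 to 163 CPM in Id2KO Lgr5+EpCAM+ and 21.6 to 68.8 CPM in Id2KO EpCAM+ cells. In wild type EpCAM+ cells they summed to 33.9 to 56.9 CPM, and none of the 14 counted was at 0 throughout these groups. The part of these markers in the results was not tested.

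Against wild type EpCAM+ cells, none of the 10 genes passed in Id2KO Lgr5+EpCAM+ cells, where 3.04% of all genes did; 2 had an unadjusted p under 0.05. Sp5 overlapped, with 15.8, 18.7 and 16.7 CPM in Id2KO Lgr5+EpCAM+ and 17.1, 18.2 and 19.0 CPM in wild type EpCAM+ cells, and had a log2 fold change of -0.08 (95% interval -1.16 to 1.0). Myc was at -1.29 ± 0.35 (edgeR adjusted p = 0.073) and passed in 4 of the alternatives: DESeq2 (adjusted p = 0.0032), the replicate number as a block (edgeR adjusted p = 0.034), the groups alone (0.011) and without the libraries over 100 CPM of C1qa (0.031). Tcf7l2 had 154, 117 and 161 CPM in Id2KO Lgr5+EpCAM+ cells against 97.4, 97.8 and 100 CPM in wild type EpCAM+ cells (+0.55 ± 0.16, edgeR adjusted p = 0.1; DESeq2 adjusted p = 0.041).

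**Figure D2:**
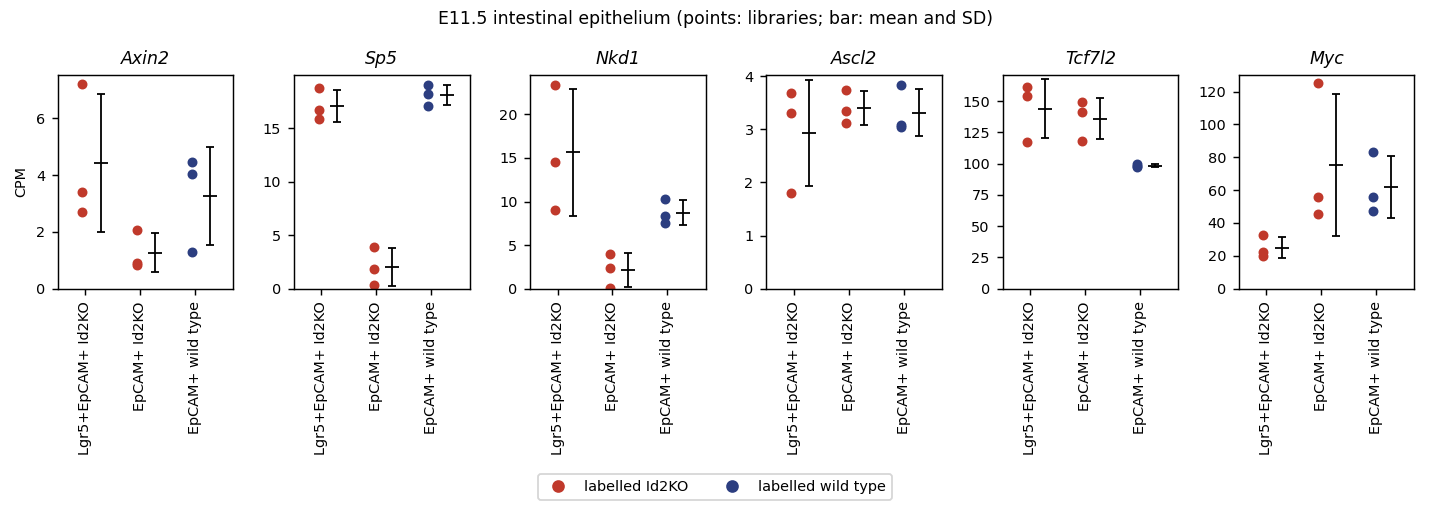
CPM of 6 genes in E11.5 epithelium (points: libraries, bars: mean and SD, n = 3), with Id2KO groups in red and wild type in blue. Sp5 is at 0.39 to 3.87 CPM in Id2KO EpCAM+ cells and at 15.8 to 19.0 CPM in the other groups, while Myc is lowest in Id2KO Lgr5+EpCAM+ cells.

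Other genes of the pathway were taken from lists of receptors and transducers (22 genes), nuclear cofactors (14) and further targets (20). In Id2KO against wild type EpCAM+ cells, 1.66% of all genes tested passed. There 1 of 21 tested receptor and transducer genes was lower, Fzd10 at -3.17 ± 0.52 (edgeR adjusted p = 0.012), a Frizzled receptor. Of 14 cofactors 1 was higher, the repressive TCF factor Tcf7l1 at +0.91 ± 0.15 (edgeR adjusted p = 0.013). Of 17 further targets Tnfrsf19, a receptor of the TNF family known as Troy, was lower at -2.15 ± 0.41 (edgeR adjusted p = 0.026) and the progenitor factor Sox9 higher at +1.08 ± 0.24 (edgeR adjusted p = 0.048). In Id2KO Lgr5+EpCAM+ against Id2KO EpCAM+ cells, 3 of 17 further targets were higher, where 3.14% of all genes tested passed. Of these, Lgr5 was the basis of the sort, so its difference follows from the design. The others were Tnfrsf19 at +2.37 ± 0.42 (edgeR adjusted p = 0.01) and the ion cotransporter Slc12a2 at +1.07 ± 0.24 (edgeR adjusted p = 0.035). Fzd10 was higher (+2.32 ± 0.50, edgeR adjusted p = 0.029) and Fzd5 lower (-1.75 ± 0.22, edgeR adjusted p = 0.0016), as were the corepressors Tle4 (-1.32 ± 0.21, edgeR adjusted p = 0.0051) and Tle2 (-1.42 ± 0.34, edgeR adjusted p = 0.044). Among close relatives of the 10 genes, Ccnd2, a D-type cyclin like Ccnd1, had 1090, 1113 and 1447 CPM in Id2KO EpCAM+ cells and 466, 486 and 534 CPM in wild type (+1.34 ± 0.15, edgeR adjusted p = 0.0013). Ccnd1 in the same libraries had 74.1, 113 and 121 CPM against 66.8, 59.7 and 85.4 CPM and did not pass (+0.57 ± 0.26, edgeR adjusted p = 0.4). Of 16 cell cycle genes 3 were higher and none lower in that comparison, against the 1.66% of all genes that passed.

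In E11.5 mesenchyme, none of the 9 genes tested passed between Id2KO and wild type, where 0.881% of all genes did, and none had an unadjusted p under 0.05; DESeq2 called 0 as well. Sp5 was below the count filter there, with 1.04, 0.0 and 0.0295 CPM in Id2KO, against 0.784, 0.0287 and 0.0 CPM in wild type. Myc had 433, 339 and 378 CPM in Id2KO, against 288, 249 and 277 CPM in wild type mesenchyme, with no overlap in CPM, yet its fitted fold change was +0.14 ± 0.17 (edgeR adjusted p = 0.97). Haemoglobin transcripts took much of these libraries: Hbb-y, an embryonic beta globin, had 12588 to 36132 CPM in Id2KO, against 126013 to 156559 CPM in wild type, and the 9 erythroid markers summed to 24762 to 59648 CPM in Id2KO, against 222253 to 269068 CPM in wild type, with only Hba-a1 at 0. CPM are shares of each library's total, while the fitted values use TMM scaling; the part of these transcripts in the CPM difference was not tested. The Id2KO effect in EpCAM+ cells minus that in mesenchyme passed for none of the 10 genes (0.593% of all genes), with Sp5 at -3.13 ± 2.12 (edgeR adjusted p = 0.82) and Nkd1 at -2.51 ± 1.03 (edgeR adjusted p = 0.52), so the effects in the tissues were not shown to differ.

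Epithelium and mesenchyme themselves differed in 22.2% of all genes tested in wild type, with 2 of the 10 genes, and in 24.0% in Id2KO, with 4. Myc was lower in epithelium in both, with 82.9, 55.8 and 47.2 CPM in wild type epithelium against 288, 249 and 277 CPM in wild type mesenchyme (-2.56 ± 0.31, edgeR adjusted p = 4.2e-05), and at -2.40 ± 0.31 (edgeR adjusted p = 6.4e-05) in Id2KO. Sp5 was the epithelial member in wild type (+5.60 ± 1.73, edgeR adjusted p = 0.034), a call lost without wild type epithelial replicate 1, 2 or 3 (edgeR adjusted p = 0.061, 0.068 and 0.072), without mesenchymal replicate 2 or 3 (0.097 and 0.082) and without the libraries over 100 CPM of C1qa (0.064). In Id2KO, Nkd1 was lower in epithelium, with 0.0572, 3.99 and 2.41 CPM against 28.3, 59.9 and 44.9 CPM in mesenchyme (-4.40 ± 0.82, edgeR adjusted p = 0.0016). In wild type Nkd1 had 10.3, 8.33 and 7.55 CPM in epithelium against 17.8, 29.1 and 25 CPM in mesenchyme, also with no overlap. It came short there (-1.89 ± 0.74, edgeR adjusted p = 0.086) but passed with DESeq2 (adjusted p = 0.029), with the groups alone (edgeR adjusted p = 0.00088) and without the libraries over 100 CPM of C1qa (0.0018). In Id2KO, Lef1 was lower in epithelium as well (-2.81 ± 0.79, edgeR adjusted p = 0.019) and Tcf7l2 higher (+0.60 ± 0.17, edgeR adjusted p = 0.019). Lef1 did not pass without Id2KO epithelial replicate 1 or 3 or mesenchymal replicate 1 (edgeR adjusted p = 0.072, 0.066 and 0.051), nor, at 0.05, with the groups alone. Without the libraries over 100 CPM of C1qa, which leaves Id2KO epithelial replicate 3 alone, Lef1 was at -4.06. Tcf7l2 did not pass without epithelial replicate 1 or 3 (0.065 and 0.08), without mesenchymal replicate 1 or 2 (0.076 and 0.052) or with the groups alone (0.062). Without mesenchymal replicate 1, which held 1.04 CPM of Sp5, Sp5 also passed in Id2KO (+6.90, edgeR adjusted p = 0.028).

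At E13.5, Lgr5+EpCAM+ cells carried more Ascl2 and Sp5 than EpCAM+ cells, 2 of the 9 genes tested against 1.75% of all genes. Ascl2 had 27.3, 43.8, 31.0 and 27.4 CPM in Lgr5+EpCAM+ cells and 7.7, 10.3, 6.6 and 12.3 CPM in EpCAM+ cells, with no overlap (+1.82 ± 0.26, edgeR adjusted p = 0.0021, n = 4 each). It passed under every alternative and without each library in turn. Sp5 had 9.46, 1.6, 1.38 and 0.956 CPM in Lgr5+EpCAM+ cells against 0.134, 0.0597, 0.133 and 0.064 CPM in EpCAM+ cells (+5.04 ± 1.02, edgeR adjusted p = 0.022). All Lgr5+EpCAM+ libraries lay above all EpCAM+ libraries, but replicate 1 stood far above the other Lgr5+EpCAM+ libraries. Without it Sp5 was at +3.71 and did not pass (edgeR adjusted p = 0.17), nor did it without EpCAM+ replicate 1, 2, 3 or 4 (0.065, 0.069, 0.067 and 0.08). Axin2 had 9.3, 12.3, 12.5 and 12.9 CPM in Lgr5+EpCAM+ cells and 5.13, 4.39, 4.9 and 6.76 CPM in EpCAM+ cells, again with no overlap, and came short of the threshold (+1.16 ± 0.29, edgeR adjusted p = 0.078; DESeq2 adjusted p = 0.015). Of 15 further Wnt targets tested 4 were higher and none lower, led by Lgr5 (+1.98 ± 0.16, edgeR adjusted p = 4.2e-05), Slc12a2 (+1.32 ± 0.15, edgeR adjusted p = 0.00054) and the homeobox factor Cdx1 (+2.73 ± 0.47, edgeR adjusted p = 0.0072). Lgr5 was the basis of the sort, so its difference follows from the design. No receptor, transducer or cofactor gene passed. The median of the 9 log2 fold changes was 0.18. The mesenchyme markers summed to 56.8 to 107 CPM in Lgr5+EpCAM+ and 43 to 69 CPM in EpCAM+ cells, against 3342 to 3682 CPM in E11.5 Id2KO and 2093 to 3078 CPM in E11.5 wild type mesenchyme; 1 of the 14 counted, Twist1, was at 0 in the Lgr5+EpCAM+ libraries. Their part in the result was not tested.

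The Lgr5+ against EpCAM+ difference in E11.5 Id2KO minus that at E13.5 was tested directly. It passed for Ascl2 alone of the 10 genes, at -2.08 ± 0.44 (SE, edgeR adjusted p = 0.035), where 0.612% of all genes passed. The 2 sides differ in stage, in genotype label and in library set, and these cannot be told apart. The call was lost without any of 10 of the 14 libraries (edgeR adjusted p up to 0.11): E11.5 EpCAM+ replicate 1 (-1.99), E11.5 Lgr5+EpCAM+ replicates 1, 2 and 3 (-2.28, -2.17 and -1.82), E13.5 Lgr5+EpCAM+ replicates 2, 3 and 4 (-1.93, -2.07 and -2.12) and E13.5 EpCAM+ replicates 1, 2 and 3 (-2.0, -2.12 and -1.95). Without the libraries over 100 CPM of C1qa, which leaves E11.5 EpCAM+ replicate 3 alone, Ascl2 was at -1.99. Myc was at -1.76 ± 0.44 and came short (edgeR adjusted p = 0.094), but passed with the replicate number as a block (-1.70, edgeR adjusted p = 0.0055), with DESeq2 (adjusted p = 0.0075) and without E11.5 EpCAM+ replicate 1 (-2.0, edgeR adjusted p = 0.048).

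Between stages, E13.5 EpCAM+ cells differed from wild type E11.5 EpCAM+ cells in 40.4% of all genes tested and in 5 of 9 of these genes. Sp5 fell to 0.134, 0.0597, 0.133 and 0.064 CPM at E13.5, against 17.1, 18.2 and 19.0 CPM at E11.5 (-7.28 ± 0.47, edgeR adjusted p = 1.9e-07). Ascl2 was higher at E13.5 (+1.66 ± 0.39, edgeR adjusted p = 0.0043), as were Tcf7l2 (+2.40 ± 0.17, edgeR adjusted p = 3.7e-07) and Myc (+1.23 ± 0.25, edgeR adjusted p = 0.0018). Ccnd1 was lower (-0.65 ± 0.24, edgeR adjusted p = 0.046), a call lost without E11.5 replicate 1, 2 or 3 (edgeR adjusted p = 0.068, 0.055 and 0.22), without E13.5 replicate 1, 3 or 4 (0.095, 0.11 and 0.093), with the replicate block (0.1) and without the libraries over 100 CPM of C1qa (0.068). Nkd1 had 0.0, 0.149, 1.03 and 3.27 CPM at E13.5 against 10.3, 8.33 and 7.55 CPM at E11.5; it came short (-2.74 ± 1.09, edgeR adjusted p = 0.063) and passed without E13.5 replicate 1 (0.048) or 4 (-4.24, 0.0097) and with the block (-5.29, 0.0079). Tcf7 came short as well (-1.09 ± 0.48, edgeR adjusted p = 0.091) and passed without E13.5 replicate 2 (-1.62, 0.014). These stages lie on either side of the division in reads assigned to no gene, and stage cannot be told apart from library set.

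In Id2KO Lgr5+EpCAM+ cells at E11.5 against Lgr5+EpCAM+ cells at E13.5, 6 of 9 genes passed where 40.9% of all genes did. These groups differ in stage, in genotype label and in library set, and these cannot be told apart. Sp5 (+2.16 ± 0.69, edgeR adjusted p = 0.025) and Nkd1 (+3.51 ± 0.64, edgeR adjusted p = 0.001) were higher at E11.5. Axin2 (-1.62 ± 0.42, edgeR adjusted p = 0.0089), Ascl2 (-3.66 ± 0.34, edgeR adjusted p = 5.7e-06), Tcf7l2 (-1.82 ± 0.18, edgeR adjusted p = 1e-05) and Myc (-2.67 ± 0.27, edgeR adjusted p = 1.2e-05) were lower. Ascl2 had 3.69, 3.3 and 1.81 CPM at E11.5 against 27.3, 43.8, 31.0 and 27.4 CPM at E13.5. Lgr5, on which both sorts rest, overlapped between them, with 119, 73.8 and 118 CPM at E11.5 and 94.7, 83.6, 89.5 and 92.4 CPM at E13.5. The call on Sp5 was lost without E11.5 replicate 1, 2 or 3 (edgeR adjusted p = 0.053, 0.075 and 0.054) and without E13.5 replicate 2, 3 or 4 (0.06, 0.062 and 0.05), and Ccnd1 passed without E13.5 replicate 2 (+1.25, 0.0036).

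Tcf7l2 divided with the library set. It had 294 to 495 CPM in the 12 E13.5 and adult ISC libraries and 49.8 to 161 CPM in the other 29, with no overlap. Within the E13.5 and adult ISC libraries it did not pass in either comparison, with -0.03 (95% interval -0.35 to 0.28) for E13.5 Lgr5+EpCAM+ over EpCAM+ cells and -0.22 (95% interval -0.60 to 0.16) for adult ISC over E13.5 Lgr5+EpCAM+ cells. Znrf3, a ubiquitin ligase that removes Frizzled receptors, had 269 to 511 CPM in the 12 libraries and 7.76 to 33.9 CPM in the 29. Ctnnbip1, an inhibitor of beta-catenin binding to TCF, had 2.95 to 13.3 CPM in the 12 and 39.6 to 107 CPM in the 29. Adult ISC and adult segments are both Lgr5+ stem cells at P60 by their labels, and they fell on opposite sides in all of these genes. The share of all genes that divided in this way was not counted. The part that library preparation or counting had in Tcf7l2 was not tested.

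**Figure D3:**
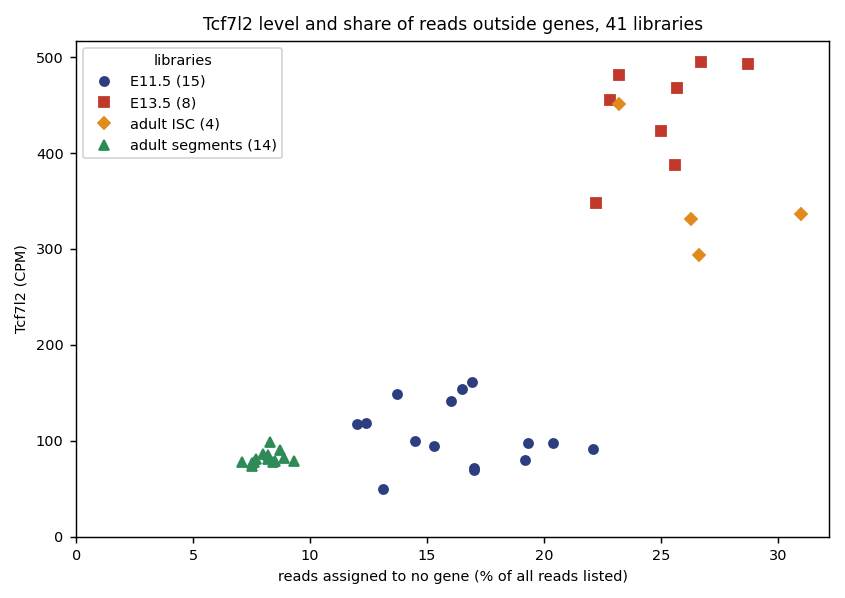
Tcf7l2 in CPM (y axis) against the share of all listed reads assigned to no gene (x axis) in 41 libraries (points, by stage). The 12 E13.5 and adult ISC libraries lie at 22.2% to 31.0% and 294 to 495 CPM, and the other 29 at 7.1% to 22.1% and 49.8 to 161 CPM.

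Adult ISC and E13.5 Lgr5+EpCAM+ cells both lie in the set of 12, and 5 of the 9 genes tested were higher in adult ISC, none lower, where 35.9% of all genes tested passed and 18.6% of all genes tested passed as higher. Axin2 had 253, 192, 160 and 156 CPM in adult ISC and 9.3, 12.3, 12.5 and 12.9 CPM at E13.5 (+4.10 ± 0.23, edgeR adjusted p = 6.2e-08). Ascl2 had 246, 203, 194 and 113 CPM in adult ISC and 27.3, 43.8, 31.0 and 27.4 CPM at E13.5 (+2.64 ± 0.25, edgeR adjusted p = 7.5e-06). Myc (+1.19 ± 0.21, edgeR adjusted p = 0.00085) and Ccnd1 (+1.59 ± 0.34, edgeR adjusted p = 0.0032) were higher too. No group overlapped in Axin2, Ascl2, Myc or Ccnd1, which adds little to the calls, as these genes were picked by them. Sp5 had 13.6, 17.7, 9.03 and 8.29 CPM in adult ISC and 9.46, 1.6, 1.38 and 0.956 CPM at E13.5 and only just passed (+1.97 ± 0.72, edgeR adjusted p = 0.049). Sp5 no longer passed without any adult ISC replicate (edgeR adjusted p = 0.079, 0.12, 0.056 and 0.052 for replicates 1 to 4) or without E13.5 replicate 2, 3 or 4 (0.12, 0.12 and 0.11). Without E13.5 replicate 1 it was at +3.31 (edgeR adjusted p = 0.00093). The median log2 fold change was 1.59 over the 9 genes and 0.02 over all genes. Of 14 further Wnt targets 11 were higher and none lower, led by Slc12a2 (+3.57 ± 0.17, edgeR adjusted p = 1.4e-08), the BMP coreceptor Rgmb (+4.89 ± 0.27, edgeR adjusted p = 6e-08) and Lgr5 (+2.19 ± 0.18, edgeR adjusted p = 1.8e-06), which was also the basis of the sort. Among relatives Mycn, the embryonic counterpart of Myc, was lower (-3.84 ± 0.27, edgeR adjusted p = 4.4e-07), with 3.73 to 8.54 CPM in adult ISC and an average of 106 ± 12.6 CPM at E13.5 (SD, n = 4), and Tcf7l1 was lower (-7.97 ± 0.67, edgeR adjusted p = 2.3e-06). The Paneth cell markers, of cells that neighbour stem cells in the adult crypt, summed to 558 to 905 CPM in adult ISC and 0.301 to 3.83 CPM at E13.5, with none of the 9 at 0 throughout a group; their part was not tested.

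Against the mean of the wild type adult segments, a comparison added after the values were seen, 7 of the 10 genes passed in adult ISC, where 56.6% of all genes did. Axin2 (+1.88 ± 0.16, edgeR adjusted p = 8.7e-07), Lef1 (+1.95 ± 0.58, edgeR adjusted p = 0.012) and Tcf7l2 (+2.47 ± 0.16, edgeR adjusted p = 1e-07) were higher. Sp5 (-1.94 ± 0.28, edgeR adjusted p = 8.2e-05), Nkd1 (-2.31 ± 0.48, edgeR adjusted p = 0.0013), Tcf7 (-1.79 ± 0.24, edgeR adjusted p = 3.9e-05) and Myc (-0.79 ± 0.13, edgeR adjusted p = 0.00018) were lower. Axin2 had 253, 192, 160 and 156 CPM in adult ISC against 48.5 to 85.4 CPM (median 63.2) in the 6 wild type segment libraries, and Sp5 8.29 to 17.7 CPM against 40.5 to 75.7 CPM (median 61.1). Ascl2 did not pass (+0.10, 95% interval -0.26 to 0.47). Lef1 had 3.18 to 7.56 CPM in adult ISC. The T cell markers summed to 5.24 to 97.4 CPM in adult ISC. In wild type segments they summed to 4.86 to 73.6 CPM in the anterior, 4.16 to 26.8 CPM in the middle and 6.07 to 6.1 CPM in the posterior group. Of the 8 counted, 1 was at 0 in the middle and 4 in the posterior group. The part of these markers in the results was not tested. The labels differ by segment and the libraries by set, and these cannot be told apart.

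In adult segments, libraries labelled Id2KO and wild type were compared within each of 3 segments, with 2 libraries a group. In the anterior segment none passed (1.5% of all genes; 2 of the 10 had an unadjusted p under 0.05, and DESeq2 called 0). Axin2 there had 77.2 and 41 CPM in libraries labelled Id2KO and 83.2 and 85.4 CPM in wild type (-0.52 ± 0.23, edgeR adjusted p = 0.33). In the middle segment 2 passed (3.91% of all genes). Nkd1 had 37.3 and 63.4 CPM in libraries labelled Id2KO and 14.3 and 9.42 CPM in wild type (+2.05 ± 0.43, edgeR adjusted p = 0.019, n = 2 each). Ccnd1 had 126 and 102 CPM in libraries labelled Id2KO and 198 and 194 CPM in wild type (-0.82 ± 0.15, edgeR adjusted p = 0.0083). In the posterior segment 2 passed (5.16% of all genes). Axin2 had 89.1 and 100 CPM in libraries labelled Id2KO and 48.5 and 54.0 CPM in wild type (+0.87 ± 0.23, edgeR adjusted p = 0.047). Myc had 523 and 494 CPM in libraries labelled Id2KO and 679 and 818 CPM in wild type (-0.58 ± 0.13, edgeR adjusted p = 0.027). None of these 4 pairs of groups overlapped, which adds little to the calls, as the genes were picked by them and each group held 2 libraries.

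With 2 libraries a group, leaving out 1 ended most of these calls. Axin2 in the posterior segment lost its call without any of the 4 libraries (edgeR adjusted p = 0.27 and 0.09 without Id2KO replicate 1 and 2, and 0.21 and 0.14 without wild type replicate 1 and 2) and with the replicate block (0.059). Myc there lost it without Id2KO replicate 1 or 2 (0.2 and 0.069) or wild type replicate 2 (-0.43, 0.2). Nkd1 in the middle segment lost it without Id2KO replicate 1 (+1.62, 0.13) or wild type replicate 1 or 2 (0.065 and 0.15), and Ccnd1 without the same 3 libraries (0.097, 0.052 and 0.057). In the anterior segment Axin2 passed without Id2KO replicate 2, the higher library with 77.2 CPM, which leaves the 41 CPM library alone in its group (-1.03 ± 0.20, edgeR adjusted p = 0.029). In the middle segment Axin2 had 92.4 and 106 CPM in libraries labelled Id2KO and 70.1 and 56.3 CPM in wild type, and did not pass (+0.62 ± 0.23, edgeR adjusted p = 0.16; 0.023 with no filter on low counts).

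The Id2KO effect in the posterior minus that in the anterior segment passed for none of the 10 genes in edgeR (0.320% of all genes; 3 had an unadjusted p under 0.05). Axin2 was nearest, at +1.39 ± 0.32 (edgeR adjusted p = 0.082). It passed with DESeq2 (adjusted p = 0.0053), with no filter on low counts (edgeR adjusted p = 4.4e-05) and without anterior Id2KO replicate 2 (+1.90, edgeR adjusted p = 0.016). Myc was at -0.66 ± 0.19 (edgeR adjusted p = 0.14) and passed with DESeq2 (adjusted p = 0.021) and with no filter (edgeR adjusted p = 0.0047). Of the further Wnt targets, Prox1, a homeobox factor, was higher in libraries labelled Id2KO in all 3 segments: 3.01 and 7.37 CPM against 0.858 and 0.677 CPM in the anterior (+2.75 ± 0.48, edgeR adjusted p = 0.012), +2.52 ± 0.45 (edgeR adjusted p = 0.008) in the middle and +2.23 ± 0.45 (edgeR adjusted p = 0.014) in the posterior segment. Apc, the scaffold of the destruction complex, was higher in the middle (+0.59 ± 0.15, edgeR adjusted p = 0.048) and posterior segment (+0.69 ± 0.15, edgeR adjusted p = 0.02). Markers of Paneth cells differed between the labels in the middle segment, where Nkd1 and Ccnd1 had passed. They summed to 173 to 298 CPM in middle libraries labelled Id2KO and 1750 to 2154 CPM in wild type, with no overlap. In the posterior segment they varied within groups, from 218 to 1536 CPM in libraries labelled Id2KO and 247 to 2572 CPM in wild type. None of the 9 was at 0 throughout these groups, and the part of these markers in the results was not tested.

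**Figure D4:**
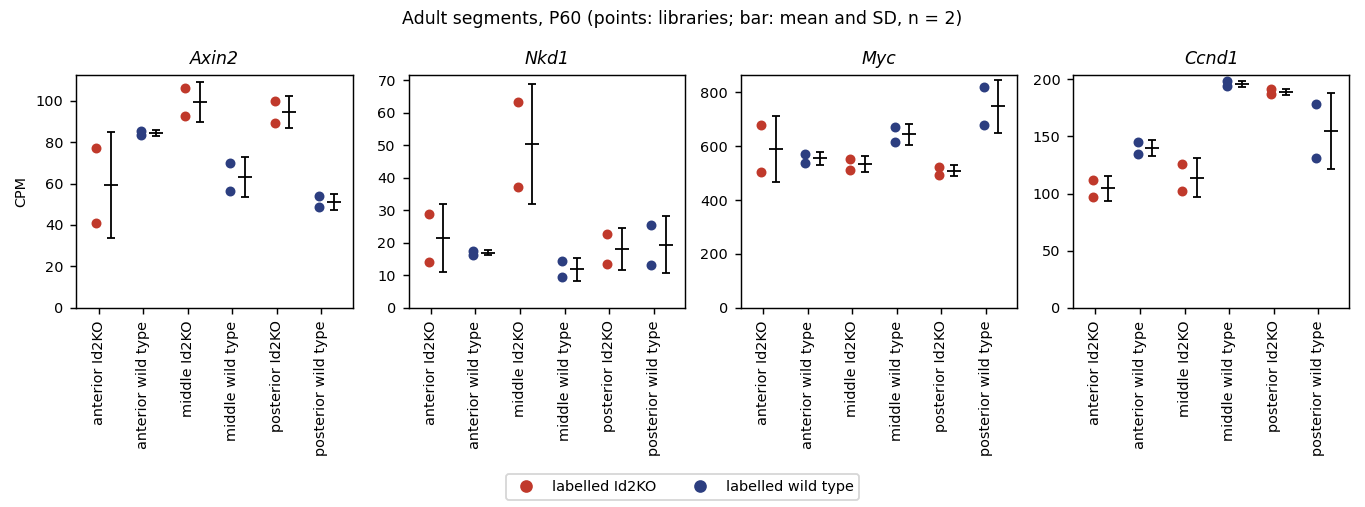
CPM of 4 genes in adult segments (points: libraries, bars: mean and SD, n = 2), with libraries labelled Id2KO in red to the left of wild type in blue. Nkd1 stands apart in middle libraries labelled Id2KO at 37.3 and 63.4 CPM, and Axin2 is higher and Myc lower in posterior libraries labelled Id2KO.

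Along the gut, posterior against anterior, none of the 10 genes passed in wild type (4.81% of all genes; 4 had an unadjusted p under 0.05, and DESeq2 called 2, Axin2 and Myc). The 4.81% is 646 genes, a count that was 34 without anterior wild type replicate 2 and 1465 without anterior wild type replicate 1. Axin2 had 48.5 and 54.0 CPM in the posterior and 83.2 and 85.4 CPM in the anterior segment (-0.71 ± 0.23, edgeR adjusted p = 0.089). In libraries labelled Id2KO only Ccnd1 passed (2.0% of all genes), with 187 and 191 CPM in the posterior and 96.9 and 112 CPM in the anterior segment (+0.85 ± 0.15, edgeR adjusted p = 0.008). That call was lost without posterior Id2KO replicate 1 or 2 (edgeR adjusted p = 0.074 and 0.054) or anterior Id2KO replicate 2 (0.11), and without the last Axin2 passed (+1.19, 0.014). Between Tomato+ posterior libraries labelled Id2KO and posterior libraries labelled Id2KO that were not selected on Tomato, none of the 10 genes passed (0.00% of 13436 genes by edgeR; 0 of the 10 had an unadjusted p under 0.05). Axin2 had 91.2 and 95.3 CPM in Tomato+ and 89.1 and 100 CPM in the other libraries (-0.02, 95% interval -0.46 to 0.42).

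The genes whose group means ran most like a member's were named by Pearson correlation of log2(CPM + 1) over the 15 groups, among 13034 genes. The nearest to Axin2 were Slc12a2 and Cd38 at r = 0.99 and Noxo1 at r = 0.98, and to Ascl2 they were Otc, Car9 and Ceacam1 at r = 0.99. Sp5 ran most like Nuak2 (r = 0.97), Cdo1 and Fam189a2 (r = 0.96), and Tcf7 like Ppp2r5a (r = 0.99) and Fads2 (r = 0.98). Tcf7l2 ran most like Zscan26, Gatad1 and Paip1 (r = 0.98). Nkd1 (highest r = 0.92, Dtx2) and Lef1 (highest r = 0.86, Itpr1) had looser matches. The 15 points share stage and library set, and these values describe the groups only. Between members, Sp5 and Tcf7 ran at r = 0.84 and Nkd1 and Tcf7l2 at r = -0.84, while Lef1 ran between r = -0.42 (with Sp5) and r = 0.16 (with Nkd1).

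**Figure D5:**
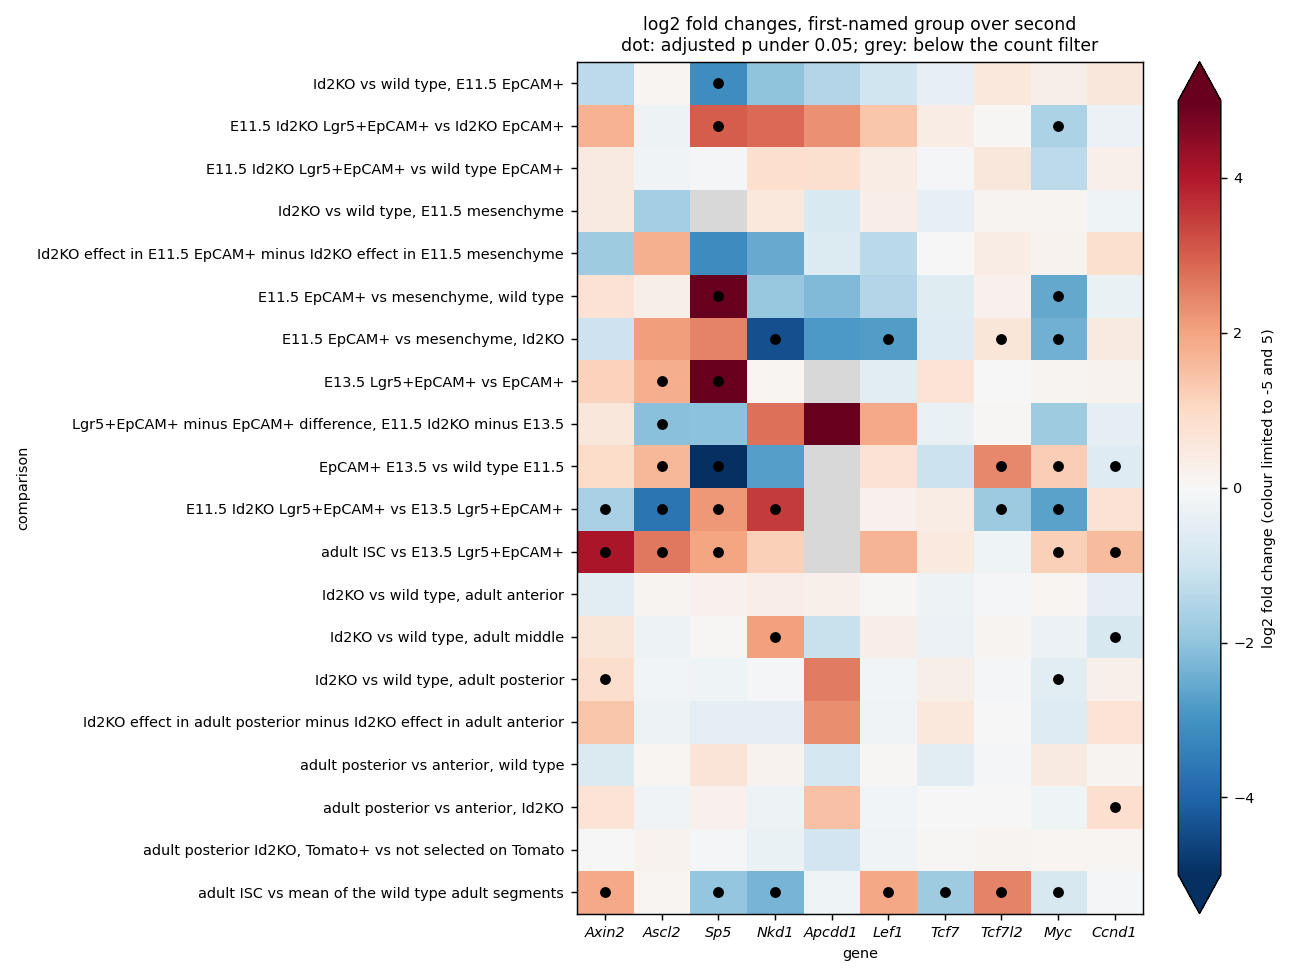
Fitted log2 fold change (colour, limited to -5 and 5) of the 10 genes (columns) in 20 comparisons (rows, first-named group over second), with a dot for an adjusted p under 0.05 and grey for genes below the count filter. Dots gather in the comparisons between stages and with adult ISC, Apcdd1 has none, and Sp5 and Myc have 8 each.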

How the data were processed

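RNA of sorted cell samples (250 cells each) was amplified as polyA cDNA with SMARTer version 3 in 15 cycles and sequenced as 50-base single reads, per the labels' protocols. Per the submitters' processing notes, the authors' tools include the aligner STAR 2.3.1z13 and the counter HTSeq 0.6.1p1, with build mm9 (also bcl2fastq 1.8.4, DESeq2 1.6.3 and SAMtools 1.2); whether counting used strand is not given in the sources used here. The deposited files hold whole-number read counts per gene for each library, not normalized, as the authors made them. The 5 category rows were left out of library sizes and tests. No molecular identifiers are stated, so reads are not independent molecules. The 40 pairs of libraries within groups held no identical pair, and all differed beyond sampling noise (chi-square per degree of freedom 23.7 to 238).

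CPM and per-kilobase levels (union exon length, GENCODE M21, GRCm38) were computed from the counts. Differences were tested on counts with the quasi-likelihood test of edgeR 4.0.16 (R 4.3.3, limma 3.58.1, TMM scaling, filterByExpr with a minimum count of 10) fitted either on the compared groups or together with related groups of the same stage, with Benjamini-Hochberg adjustment over all genes tested; 95% intervals are the estimate ± 1.96 SE. Alternatives were RLE scaling, DESeq2 1.42.0, a replicate block, no filter, fits of only the compared groups, and leaving out each library, in 159 fits. The fits were tested on simulated data with known changes. The 10 genes, the other gene lists and the tests were chosen with earlier results of these data known. The rule for named genes was all 10 genes in every comparison, from each other list up to 3 genes that passed with the smallest p in a comparison, Id2 and Lgr5 as checks of the labels, and the 3 genes of highest correlation with each of the 10 over group means, among genes with a mean of at least 5 CPM in some group; 1 gene named by this rule is not reported here. Refits without libraries over 100 CPM of C1qa, and the comparison of adult ISC with adult segments, were added after seeing the data. Same-numbered E11.5 Id2KO EpCAM+ and Lgr5+EpCAM+ libraries deviated together from their group means (r = 0.13 to 0.26 over 3 pairs). Id2KO EpCAM+ and mesenchyme libraries did so more weakly (r = 0.06 to 0.19 over 3 pairs).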

Additional observations from a re-analysis of the deposited data

Results flagged for a closer look

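Of 30 sets of 4 libraries for 1 gene, 5 had a library farther from the others than Dixon's limit of 0.829 for 4 values, where chance gives about 1 in 20 sets. Axin2 had 9.3 CPM in E13.5 Lgr5+EpCAM+ replicate 1, against 12.3, 12.5 and 12.9 CPM in the other libraries. Sp5 had 9.46 CPM in the same library, against 0.956, 1.38 and 1.6 CPM. Apcdd1 had 1.12 CPM in E13.5 EpCAM+ replicate 4 and no reads in the others. Ccnd1 had 88.7 CPM in E13.5 Lgr5+EpCAM+ replicate 2, against 24.5, 30.4 and 35.3 CPM, and 60.1 CPM in E13.5 EpCAM+ replicate 2, against 30.7, 33.9 and 34.1 CPM. The Lgr5+EpCAM+ against EpCAM+ difference of Ascl2 was unequal between E11.5 Id2KO and E13.5 cells in edgeR's test of the difference itself, by -2.08 on the log2 scale.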

How the results depend on the processing

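Leaving out each library in turn, the number of the 10 genes that passed lay between 0 and 1 for Id2KO over wild type E11.5 EpCAM+ cells, 0 and 2 for Id2KO Lgr5+EpCAM+ over Id2KO EpCAM+ cells, 1 and 2 for wild type epithelium over mesenchyme, 2 and 4 for the same in Id2KO, 1 and 2 for E13.5 Lgr5+EpCAM+ over EpCAM+ cells, 0 and 1 for the difference of these differences, 4 and 6 for E13.5 over E11.5 EpCAM+ cells, 5 and 6 for E11.5 Id2KO over E13.5 Lgr5+EpCAM+ cells, and 4 and 5 for adult ISC over E13.5. In adult segments it lay between 0 and 1 in the anterior, 0 and 2 in the middle and 0 and 1 in the posterior for Id2KO over wild type, 0 and 1 for posterior minus anterior effects and 0 and 1 for posterior over anterior in Id2KO. With the compared groups alone 0 genes passed in Id2KO over wild type EpCAM+ cells and in Id2KO Lgr5+EpCAM+ over Id2KO EpCAM+ cells, 1 in Id2KO Lgr5+EpCAM+ over wild type cells and 2 in Id2KO epithelium over mesenchyme. Without the libraries over 100 CPM of C1qa, a setting chosen after seeing the data, Id2KO Lgr5+EpCAM+ over wild type cells had 1. Counts in that setting are not given for comparisons with Id2KO EpCAM+ cells, where replicate 3 alone is left. DESeq2 called 2 genes in Id2KO Lgr5+EpCAM+ over wild type cells, 2 in the difference of differences, 2 for posterior minus anterior effects and 2 for wild type posterior over anterior. With no filter the last 2 had 3 each, and posterior over anterior in Id2KO had 2. With the replicate block, 1 gene passed in Id2KO Lgr5+EpCAM+ over wild type cells, 2 in the difference of differences and 1 in the posterior segment; Ccnd1 lost and Nkd1 gained its call in E13.5 over E11.5 EpCAM+ cells, and the block changed no other call. Every same-numbered correlation lay above every other for E11.5 Id2KO EpCAM+ and Lgr5+EpCAM+ cells (r = 0.13 to 0.26 against -0.15 to -0.02). The same held for Id2KO EpCAM+ cells and mesenchyme (0.06 to 0.19 against -0.13 to 0.05). Same-numbered correlations elsewhere with 3 or more pairs reached down to -0.14. Of 956 values under other settings 919 kept direction and side of the threshold, as did 1220 of 1303 with a library left out, and none of the called ones reversed; the cause of each change was not tested.

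Over all genes, counts moved by more than 1.5 times under DESeq2 in Id2KO over wild type EpCAM+ cells (251 to 727), Id2KO Lgr5+EpCAM+ over Id2KO EpCAM+ (476 to 1146) and over wild type EpCAM+ cells (461 to 1243), mesenchyme (121 to 293), the tissue difference (93 to 315), E13.5 (234 to 462), the difference of differences (94 to 324), the anterior, middle and posterior segments (202 to 550, 526 to 1110 and 693 to 1303), their difference (43 to 494), posterior over anterior in wild type (646 to 1515) and in Id2KO (269 to 539) and Tomato+ (0 to 1). With no filter the last 7 had 766, 1302, 1447, 868, 1654, 675 and 66. The groups alone gave 119 in Id2KO over wild type EpCAM+ cells, 972 in Id2KO Lgr5+EpCAM+ over wild type cells, 44 in the anterior and 340 in the middle segment, and 47 for wild type posterior over anterior. Without the C1qa libraries the count was 830 for Id2KO Lgr5+EpCAM+ over wild type cells. Comparisons with Id2KO EpCAM+ cells are not counted in that setting, where replicate 3 alone is left. Leaving out 1 library moved counts over all genes by more than 1.5 times in Id2KO over wild type EpCAM+ cells (77 to 301), Id2KO Lgr5+EpCAM+ over Id2KO EpCAM+ (215 to 554) and over wild type EpCAM+ cells (190 to 303), mesenchyme (64 to 127), the tissue difference (68 to 142), the difference of differences (40 to 149), the anterior, middle and posterior segments (74 to 317, 177 to 258 and 183 to 494), their difference (11 to 204), and posterior over anterior in Id2KO (129 to 191) and wild type (34 to 1465), so the shares of all genes that passed are loose there. RLE scaling moved the share of higher calls by less than 10 percentage points in each comparison. Genes with few reads, Sp5 at E13.5 and Apcdd1 throughout, are limited by depth.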
